A study of Mus musculus with 6 samples.

Results

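The insulin-like growth factor (IGF) system was examined in cultured mouse cerebellar granule neurons through 10 genes. They are the ligands Igf1 and Igf2, the receptors Igf1r and Igf2r, and the binding proteins Igfbp2, Igfbp3, Igfbp4, Igfbp5, Igfbp6 and Igfbp7. The rows of the count table were matched by symbol, which found 10 of 10 genes among the 23366 genes of the table. The family was chosen by the fold change of Igfbp5, which earlier results of the same comparison had shown as strongly lowered. The differences of these 10 genes between the groups are therefore given as a description, with no p-value.

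All 6 libraries came from dissociated cerebella of postnatal day 7 C57BL/6 litters, enriched for granule neurons and their precursors on a Percoll gradient. The cultures were infected on day 1 in vitro with lentivirus made from the vector pLKO.1. Control cultures (n = 3) received the empty vector and Kdm6b knockdown cultures (n = 3) the vector with 1 short hairpin RNA against Kdm6b, the gene of an enzyme that removes methyl groups from lysine 27 of histone H3. The control carries no hairpin of another sequence, and the labels do not say which cultures received BDNF. Stranded mRNA libraries were read as 50 bp single ends, and gene counts per library ranged from 50326298 to 88214069. Kdm6b itself was at 257, 146 and 170 CPM (counts per 1000000 reads of TMM-scaled library size) in control replicates 1 to 3 and at 88.8, 63.3 and 79.8 CPM in knockdown replicates 1 to 3. The granule neuron genes Neurod1 (296 to 659 CPM), Zic1 (889 to 1307 CPM) and Gabra6 (99.3 to 168 CPM) were present in every library. Collagen genes of fibroblasts, Gfap of astrocytes and Mbp of oligodendrocytes were present as well, so the cultures were not made up of granule neurons alone.

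IGF1 and IGF2 are secreted growth factors that act through the receptor tyrosine kinase encoded by Igf1r, whose signal passes through insulin receptor substrates to PI3K and Akt. In the developing cerebellum this signal is known for supporting proliferation and survival of granule cells. The product of Igf2r binds IGF2 without such a kinase and carries it to lysosomes, and the binding proteins hold the ligands outside the cell, where proteases can release them.

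The hairpin strand in the labels is shown first because a stretch of it recurs in Igfbp5, the only member whose groups did not overlap. The 7 bases in capitals, ACAAGTG, lie at bases 8 to 14 of the 21, in the middle of the strand. The word was taken up because earlier results on these data had singled it out. No other word of the strand was searched for in the 3′ UTRs here. In both Igfbp5 lines the capitals mark the same word in its 3′ UTR, with 11 bases on either side, 5′ to 3′ along the transcript.
Kdm6b hairpin strand: gttcgttACAAGTGagaactc
Igfbp5 site at base 658 of the 3′ UTR: tcccccagcagACAAGTGaactcagaatg
Igfbp5 site at base 1089 of the 3′ UTR: tctcgtgagctACAAGTGtggctcttttg
These stretches lie at chr1:72861702-72861730 and chr1:72861271-72861299 on the minus strand of build GRCm38 (GENCODE M21), in the last of the 4 exons of Igfbp5. The other 9 members have 0 matches to the word in their longest annotated 3′ UTR. Over whole transcripts, the longest run of bases shared with the hairpin strand was 9, in Igf1r. It was 8 in Igfbp5, as in Igf1, Igf2 and Igf2r, so the run in Igfbp5 was not the longest among members. The 3′ UTR of Igfbp5 is 4445 bases long, against a median of 1367 over the 14028 tested genes whose 3′ UTR was searched, of which 12.5% hold the word.

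Igfbp5, which encodes a secreted binding protein that also attaches to extracellular matrix, was lower in every knockdown library than in any control library. It was at 1133, 855 and 682 CPM in control replicates 1 to 3 and at 207, 109 and 199.6 CPM in knockdown replicates 1 to 3. The lowest control value was above the highest knockdown value by a wide margin, and the control mean was 5.18 times the knockdown mean (890 ± 228 and 172 ± 54.7 CPM, SD, n = 3). It was the only member whose groups did not overlap, 1 of 10, while 16.7% of all genes tested had groups that did not overlap (knockdown below control in 7.44% and above it in 9.21%). Within replicate numbers 1, 2 and 3 the log2 difference of knockdown over control was −2.45, −2.97 and −1.77. Among the 235 searched genes with 2 or more matches to the word, Igfbp5 included, 48 (20.4%) fell and 0 rose in the edgeR fit that has the replicate number as a block. Among the 12273 searched genes without a match 4.61% fell and 2.91% rose in that fit. The word was singled out on these same data and Igfbp5 is counted in, so these shares are a description and no separate support. Genes with 2 or more matches also have long 3′ UTRs (median 3756 bases, against 1223 for those without a match). The part of the hairpin word in the level of Igfbp5 was not tested.

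**Figure D1:**
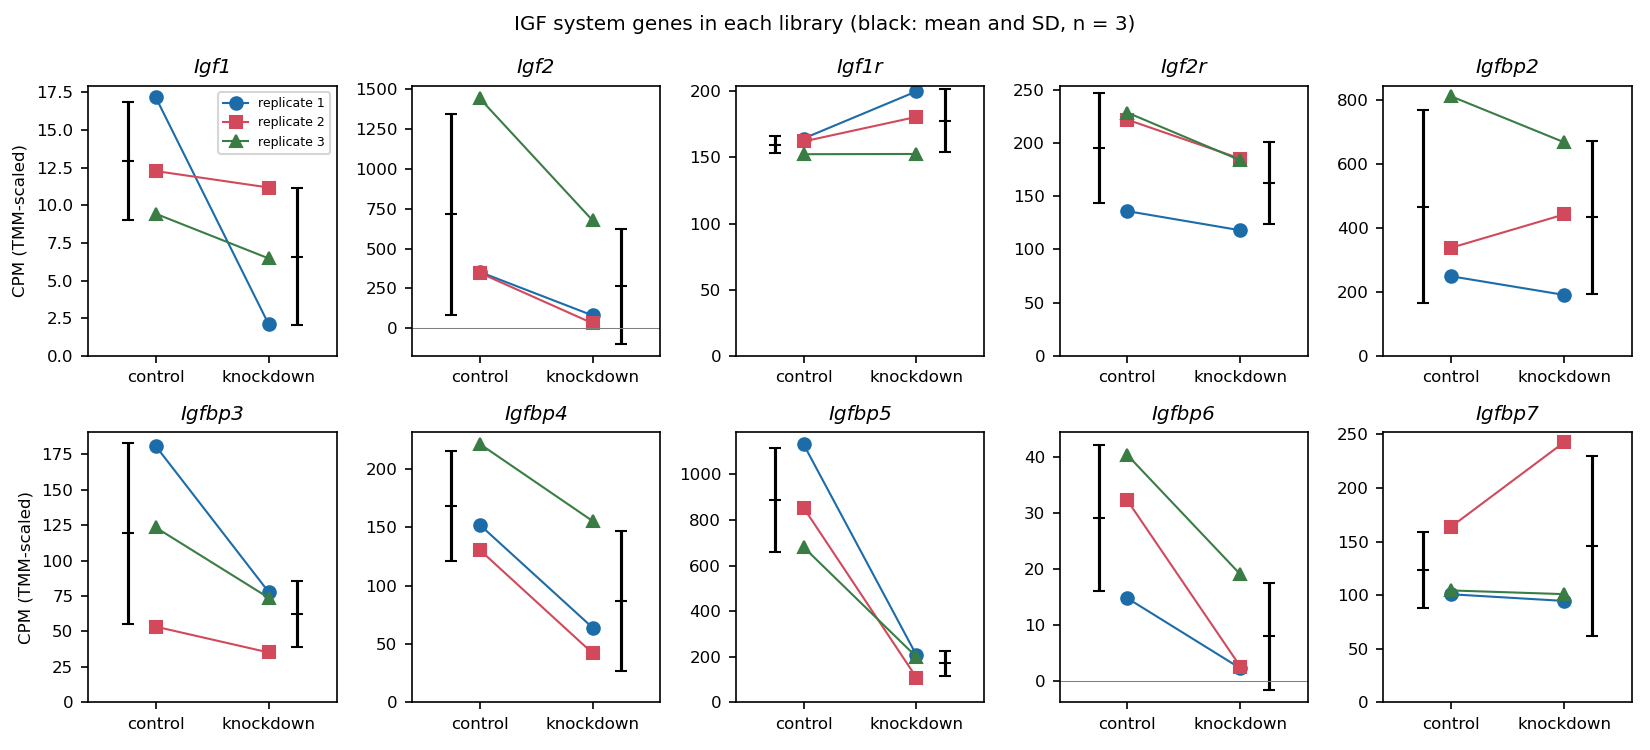
CPM (TMM-scaled counts, linear axes) of the 10 IGF system genes in each control and knockdown library, lines joining equal replicate numbers and black bars for mean and SD (n = 3). Igfbp5 lies between 682 and 1133 CPM in controls and between 109 and 207 CPM in knockdowns, and in the other 9 panels the ranges overlap.

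All 10 genes passed the filter on low counts. Without a replicate term 0 of 10 were called by edgeR at an adjusted p of 0.05, where 0.00636% of all 15731 genes tested were called. With the replicate number as a block, 2 of 10 were called, Igfbp5 and Igfbp3, both lower, where 7.98% of all genes tested were called (5.4% lower and 2.58% higher). DESeq2 without the block called 1 member, Igfbp5, where it called 3.61% of all genes (2.48% lower and 1.13% higher). Leaving out replicate 1 or replicate 2 took the count with the block to 0 each time, and leaving out replicate 3 took it to 5. Each of these fits has only 2 pairs, and without replicate 1 it called 0 of all genes. Over all genes, too, far fewer were called without replicate 2 than without replicate 3, as given in the last section. The Igfbp5 log2 fold change was −2.37, −2.13 and −2.72 without replicate 1, 2 or 3, against −2.40 with all pairs. These counts come from the contrast in which the family was noticed, and nothing is read from them. The median log2 fold change of the 10 genes with the block was −0.99, against 0.02 over all genes tested, and 8 of 10 were negative, against 47.9% of all genes.

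**Figure D2:**
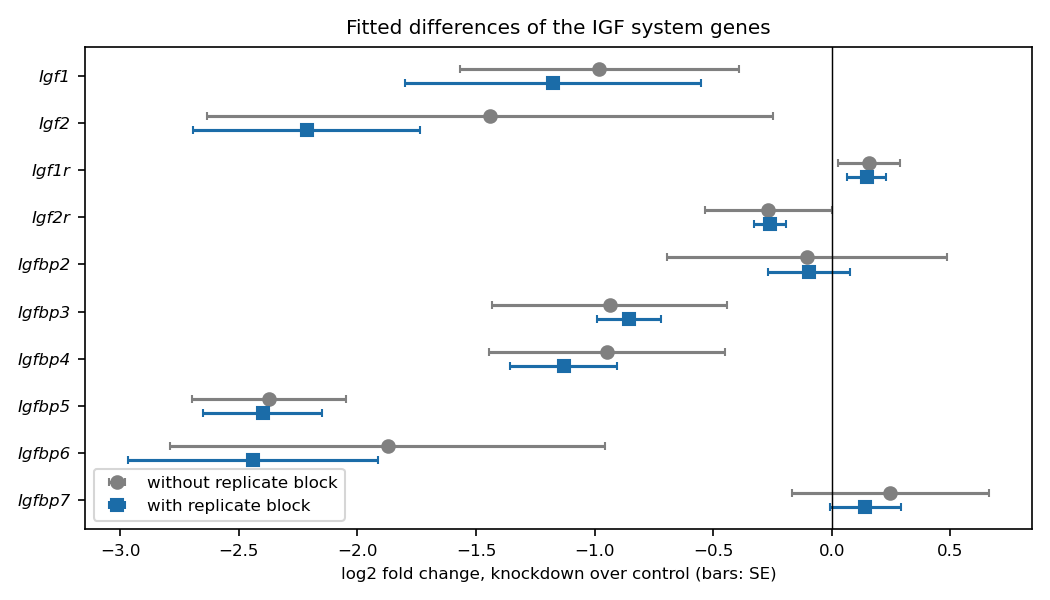
Fitted log2 fold change (knockdown over control) for each IGF system gene, from the edgeR fit without (grey circles) and with (blue squares) the replicate number as a block; bars are standard errors. Igfbp5 lies at −2.37 and −2.40 with standard errors of 0.32 and 0.25, and Igf2 and Igfbp6 have wider bars without the block than with it.

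Among the 10 genes the ligand gene Igf2 had the widest spread among libraries of a group. Igf2, an imprinted gene expressed by leptomeninges and other mesenchymal cells in brain, was at 354, 348 and 1441 CPM in control replicates 1 to 3. It was at 80.8, 31.6 and 676 CPM in knockdown replicates 1 to 3. In both groups replicate 3 was the highest, and its knockdown library lay above the other controls, so the groups overlapped although each knockdown was below the control of its number. The fitted log2 fold change was −1.44 (SE 1.19) without the block and −2.21 (SE 0.48) with it. H19, the noncoding RNA next to Igf2 in the same imprinted cluster, 72.6 kb away, was chosen after its values were seen. H19 was at 841, 946 and 1455 CPM in controls and at 181, 56.2 and 622 CPM in knockdowns. Its log2 differences in pairs 1 to 3 (−2.21, −4.07 and −1.23) stood in the same order as those of Igf2 (−2.13, −3.46 and −1.09). Igfbp4, Igfbp5, Igfbp6 and the summed pericyte and fibroblast genes described below had this order too, so it was not particular to the cluster. In GENCODE M21, exons of Igf2 overlap the readthrough gene model Gm49394 on the same strand over 3596 bases and an antisense gene over 98 bases. The annotation behind the deposited counts is not given, so whether these overlaps affected the Igf2 counts is unknown. The antisense transcript, listed as Igf2as, was at 0.0928 to 4.29 CPM.

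Igf1, a ligand that microglia and some neurons make in brain, had the lowest mean CPM of the 10 genes in both groups. It was at 17.2, 12.3 and 9.43 CPM in control replicates 1 to 3 and at 2.09, 11.2 and 6.47 CPM in knockdown replicates 1 to 3. Knockdown replicate 1 stood apart as the lowest library, and knockdown replicate 2 was above control replicate 3. The log2 difference was −3.04 in pair 1, −0.13 in pair 2 and −0.54 in pair 3. The summed level of 14 microglia genes was 186, 45.4 and 104 CPM in controls, against 16.2, 15.9 and 64.7 CPM in knockdowns, and its log2 difference in pairs 1 to 3 was −3.52, −1.51 and −0.68. Of its defining genes C1qa read 23.4, 0.120 and 8.06 CPM among control libraries, against 0.660, 0.0557 and 4.68 CPM among knockdown libraries, and Cx3cr1 was at 0 in control replicate 2. The part of microglia RNA in the difference of Igf1 was not tested.

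The receptor genes differed little between the groups. Igf1r, the signalling receptor, was at 164, 162 and 152 CPM in control replicates 1 to 3 and at 199.9, 181 and 153 CPM in knockdown replicates 1 to 3. The ranges overlapped at their edges, and the log2 fold change was 0.15 (SE 0.13) without and 0.15 (SE 0.08) with the block. It was the tightest member among controls, with an SD of log2 CPM of 0.06, at the 5.70th percentile of all genes tested. Igf2r, the receptor that clears IGF2, was at 136, 222 and 228 CPM in controls and at 118, 185 and 184 CPM in knockdowns. Replicate 1 was the lowest in each group, and the knockdown was slightly below its control in all 3 pairs, with log2 differences of −0.20, −0.26 and −0.31. With the block its log2 fold change was −0.26 (SE 0.07), a difference far smaller than that of Igfbp5.

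Among the other binding proteins, Igfbp3, Igfbp4 and Igfbp6 were lower in the knockdown in all 3 pairs while their group ranges overlapped. Igfbp3, the main carrier of IGFs in serum, was at 181, 53.4 and 123 CPM in control replicates 1 to 3 and at 77.8, 35.2 and 73.7 CPM in knockdown replicates 1 to 3. Control replicate 2 lay below knockdown replicates 1 and 3, and the log2 fold change was −0.94 (SE 0.49) without and −0.86 (SE 0.14) with the block. Igfbp4, an inhibitory binding protein that the protease pappalysin cleaves, was at 152, 131 and 222 CPM in controls and at 64.1, 42.2 and 155 CPM in knockdowns. Knockdown replicate 3 was above control replicates 1 and 2 (log2 fold change −0.95, SE 0.50 without and −1.13, SE 0.22 with the block). Igfbp6, which prefers IGF2 over IGF1, was at 14.8, 32.2 and 40.3 CPM in controls and at 2.25, 2.56 and 19.02 CPM in knockdowns. Its knockdown replicate 3 was above control replicate 1, and the fitted values were −1.87 (SE 0.92) without and −2.44 (SE 0.53) with the block.

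Igfbp2 and Igfbp7 showed no common direction. Igfbp2, a binding protein abundant in developing brain, was at 249, 338 and 811 CPM in control replicates 1 to 3 and at 191, 442 and 668 CPM in knockdown replicates 1 to 3. It was higher in the knockdown in pair 2 and lower in pairs 1 and 3, and its log2 fold change was −0.10 (SE 0.59) without and −0.09 (SE 0.17) with the block. Igfbp7, a more distant relative with low affinity for IGFs, was at 101, 164 and 104 CPM in controls and at 94.7, 243 and 101 CPM in knockdowns. Replicate 2 was the highest in each group, and the log2 fold change was 0.25 (SE 0.42) without and 0.14 (SE 0.15) with the block. Over the 24 fits with other scalings, filters, tests and left-out libraries, Igfbp2 was negative in 20 and positive in 4, and Igfbp7 negative in 2 and positive in 22. Igf1r was positive in all 24 and the other 7 members were negative in all 24. Exons of Igfbp7 overlap those of Polr2b on the opposite strand over 85 bases.

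Igfbp2 and Igfbp5 are neighbours on chromosome 1, at 72824503 to 72852474 on the plus strand and 72857932 to 72874884 on the minus strand in GRCm38, with their 3′ ends 5.46 kb apart. The only member whose groups did not overlap is thus adjacent to one with similar group means (466 and 434 CPM) but a wide spread within each group. Their start regions are printed because the deposited data show such different values for both. They are the RefSeq windows of build GRCm38.p6, from 250 bases before to 50 after the annotated start (base 251), and all 10 members had at least 1 such window. Capitals mark matches on either strand to TATAAA (the TATA box word), to its variant TATTTA, and to the AP-2 core GCCNNNGGC.
Igfbp5 start region, chr1:72874816-72875115, minus strand: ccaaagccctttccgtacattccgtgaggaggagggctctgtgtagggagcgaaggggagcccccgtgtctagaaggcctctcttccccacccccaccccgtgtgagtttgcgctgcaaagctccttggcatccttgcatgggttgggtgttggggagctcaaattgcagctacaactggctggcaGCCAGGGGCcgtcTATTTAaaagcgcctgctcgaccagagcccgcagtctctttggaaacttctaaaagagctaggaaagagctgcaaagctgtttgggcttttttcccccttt
Igfbp2 start region, chr1:72824230-72824529, plus strand: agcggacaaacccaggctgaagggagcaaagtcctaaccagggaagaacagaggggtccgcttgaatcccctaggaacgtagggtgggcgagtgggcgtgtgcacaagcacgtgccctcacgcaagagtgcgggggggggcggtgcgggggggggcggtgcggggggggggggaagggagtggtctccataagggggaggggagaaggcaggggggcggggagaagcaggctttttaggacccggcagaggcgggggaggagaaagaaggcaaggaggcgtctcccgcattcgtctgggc
The Igfbp5 window holds TATTTA at base 200 and GCCNNNGGC at base 187, which do not overlap each other. The Igfbp2 window holds none of the 3 words, nor does the window at its other annotated start. Over 32851 windows of the same length 13.7% hold TATTTA, 13.6% TATAAA and 16.6% GCCNNNGGC. TATAAA itself was not in the Igfbp5 window, and among members it was found in Igfbp4 and, on the reverse strand, in Igfbp6. GCCNNNGGC was also found in an Igf2 window, at base 48. TATTTA was picked after the Igfbp5 window had been read. CG dinucleotides numbered 10 in the Igfbp5 window and 18 in the Igfbp2 window printed here, against a median of 7 over all windows, and reached 48 in Igf1r and 37 in Igfbp3.

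Levels between genes were compared per length, as CPM per kb of annotated exon. In controls the order of the means was Igfbp2 (252 ± 164, SD, n = 3), Igfbp5 (148 ± 37.9), Igf2 (125 ± 110.0), Igfbp7 (102 ± 29.3), Igfbp4 (38.1 ± 10.7), Igfbp3 (38.1 ± 20.4), Igfbp6 (26.2 ± 11.7), Igf2r (20.99 ± 5.54), Igf1r (9.51 ± 0.375) and Igf1 (1.31 ± 0.394). Neighbours in this order overlapped in range except at 3 steps, from Igfbp7 to Igfbp4, from Igf2r to Igf1r and from Igf1r to Igf1. The control means of the binding proteins and Igf2 stood above those of both receptors, although Igfbp6 lay below Igf2r in control replicate 1 (13.3 and 14.6) and Igfbp3 below Igf2r in control replicate 2 (17.1 and 23.8). Igf1 stood below all other members in each control library. In knockdowns Igfbp5 was at 28.6 ± 9.11 CPM per kb (SD, n = 3) and ranked 4th by mean, behind Igfbp2, Igfbp7 and Igf2. Igf2 (14.1, 5.53 and 118 CPM per kb) lay above Igfbp5 (34.5, 18.1 and 33.2 CPM per kb) in knockdown replicate 3 but below it in replicates 1 and 2.

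**Figure D3:**
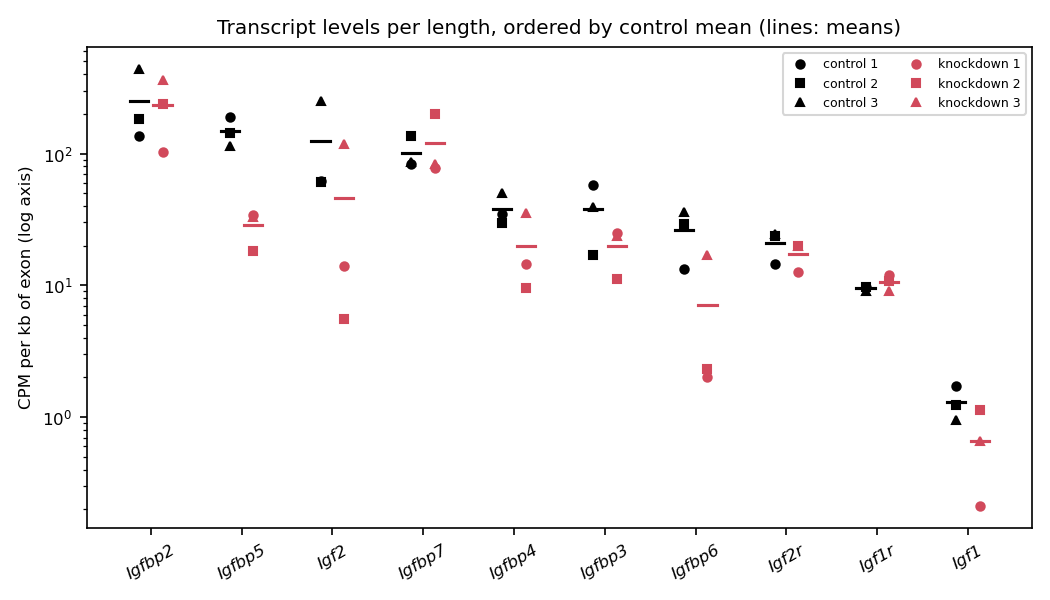
CPM per kb of exon (log axis) of each IGF system gene in the control (black) and knockdown (red) libraries, ordered by the control mean, with short lines for the means and marker shapes for replicate numbers. Levels in controls run from 252 for Igfbp2 down to 1.31 for Igf1, and the red Igfbp5 points all lie below the black ones.

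The make-up of the binding protein pool differed accordingly. Igfbp5 held 36.8%, 26.5% and 14.8% of the summed CPM per kb of Igfbp2 to Igfbp7 in control replicates 1 to 3. In knockdown replicates 1 to 3 it held 13.4%, 3.76% and 6.00%. Every knockdown share was below every control share, although control replicate 3 and knockdown replicate 1 were close. The summed level was 605 ± 139 CPM per kb in controls and 431 ± 155 in knockdowns (SD, n = 3), with overlapping ranges. Without Igfbp5 the sums were 457 ± 173 and 402 ± 158 CPM per kb. Igfbp2 held 39.3 ± 16.2% and 51.7 ± 12.7% of the pool and Igfbp7 17.6 ± 7.08% and 29.1 ± 13.4% (SD, n = 3).

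**Figure D4:**
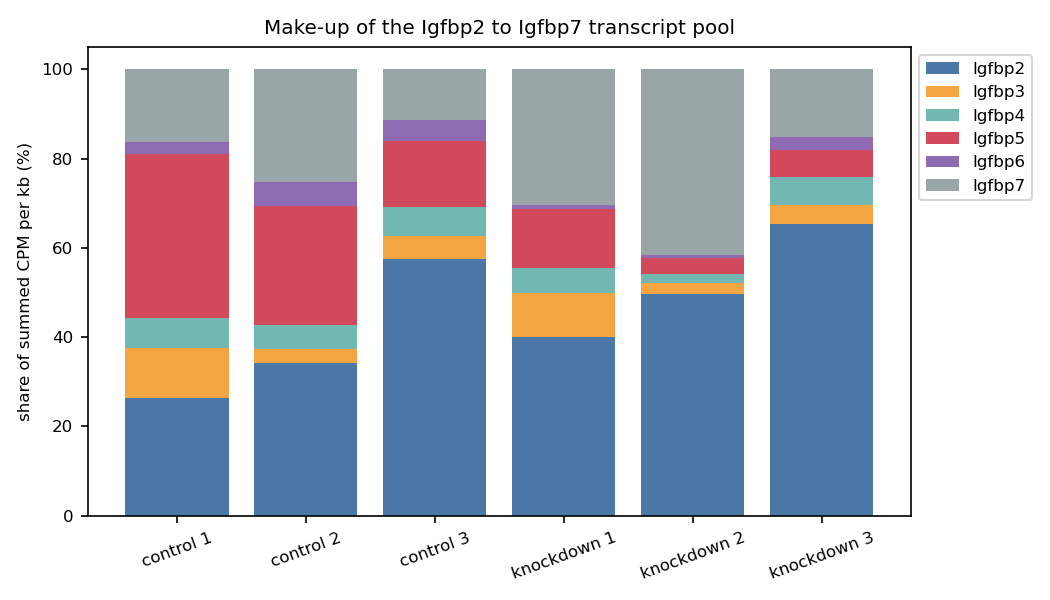
Share of the summed CPM per kb (%) of Igfbp2 to Igfbp7 held by each gene in each library, as stacked bars from 0 to 100%. The Igfbp5 part runs from 14.8% to 36.8% in controls and from 3.76% to 13.4% in knockdowns.

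Spread among the control libraries was not used in choosing the genes. The SD of log2 CPM (pseudocount 0.5) over the 3 controls was above the median of all genes tested (0.23) for 9 of 10 members, Igf1r being the exception. Igf2 had an SD of 1.18 and stood at the 98.3rd percentile of genes, Igfbp3 (0.89) at the 95.3rd, Igfbp2 (0.88) at the 95.1st and Igfbp6 (0.74) at the 92.3rd. Igfbp5 was at 0.37, the 71.3rd percentile. Which control was highest differed between members, replicate 1 for Igf1, Igfbp3, Igfbp5 and Igf1r, replicate 2 for Igfbp7 and replicate 3 for the other 5.

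Pericyte and fibroblast genes were lower alongside several members. Of 16 pericyte and fibroblast genes 8 fell and 0 rose with the block (5.4% of all genes fell), and their summed level was 13473 to 27010 CPM in controls and 4582 to 12406 CPM in knockdowns, with log2 differences of −1.56, −1.70 and −1.12 in pairs 1 to 3. None of its defining genes was near 0, with Col1a1 at 3598 to 8603 CPM in controls and 1242 to 4158 CPM in knockdowns. Of 7 meninges genes tested 1 fell, and the sum of the 8 listed was 224 to 496 and 103 to 425 CPM, with Slc22a6 at 0.541 CPM or less in all libraries and at 0 in knockdown replicate 2. Of 12 granule neuron genes 1 fell and 0 rose, and their sum was 4641 to 6888 CPM in controls and 4586 to 6577 CPM in knockdowns. A sum follows its most abundant genes. Gene by gene, 6 of the 12 granule neuron genes were lower in all 3 pairs, with a median log2 fold change of −0.18 with the block. For pericytes and fibroblasts it was 11 of 16 genes, with a median of −0.81. Without the block edgeR called 0 genes of any of these lists. Of their defining genes, DESeq2 without the block called Pdgfrb of pericytes (DESeq2 adjusted p 0.0264) and Aldh1a2 of meninges (DESeq2 adjusted p 0.000131), both lower. A lower sum in each of pairs 1 to 3 was not particular to pericytes and fibroblasts. The meninges, oligodendrocyte lineage, microglia, GABAergic interneuron and choroid plexus sums were also lower in each pair, choroid plexus by only −0.01 in pair 3. The remaining lists were mixed. The Purkinje cell sum was higher in the knockdown in pairs 1 and 2, and the granule precursor sum in pairs 1 and 3. Single granule precursor genes went different ways, with a median log2 fold change of −0.26 with the block. Of its defining genes Mki67 was lower in each pair (−1.48, −1.35 and −0.56) and Gli1 was mixed. Atoh1, at 0.850 CPM or less, was higher in each pair. The granule neuron sum was higher in pair 2, and the astrocyte and endothelial sums in pair 3. In these bulk libraries fewer cells of a type and less RNA per cell cannot be told apart, and the part of such cells in the differences was not tested.

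**Figure D5:**
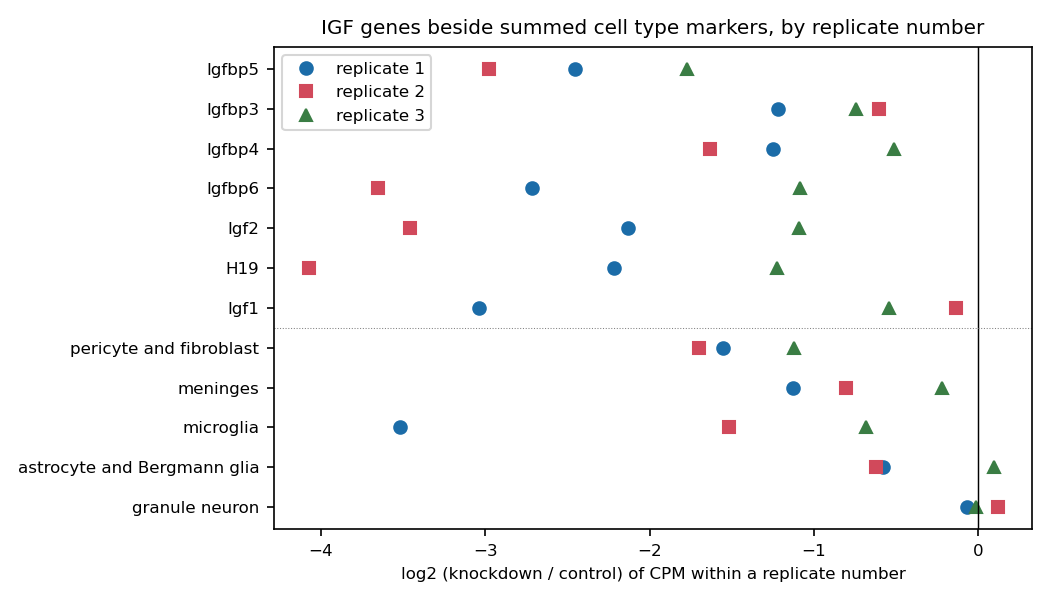
Log2 ratio of knockdown over control CPM within each replicate number (colours and shapes) for 6 IGF system genes and H19 above the dotted line and for the summed CPM of 5 cell type marker lists below it. Igfbp5 lies between −2.97 and −1.77, the pericyte and fibroblast sum between −1.70 and −1.12 and the granule neuron sum between −0.07 and 0.12. Not drawn are Igf1r (0.002 to 0.28), Igf2r (−0.31 to −0.20), Igfbp2 (−0.38 to 0.39) and Igfbp7 (−0.09 to 0.57). The remaining marker lists are not drawn either, among them granule precursors and Purkinje cells, whose sums were higher in some pairs.

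The genes whose pattern over the 6 libraries was most like that of Igfbp5 were Spp1, Colq, Timp1, Gabrd and Aldh1a2. All of them, like Igfbp5, were lower in every knockdown library than in any control library. The pattern takes in the group difference for which Igfbp5 was noticed, so the list in part restates which genes were strongly lowered. Likeness was the root-mean-square difference of log2 CPM, centred on each gene's mean, among 11780 other genes averaging 5 CPM or more. It was 0.37 for Spp1, which encodes the secreted phosphoprotein osteopontin, and 0.39 for Colq, the collagen tail of acetylcholinesterase. It was 0.43 for Timp1, an inhibitor of matrix metalloproteinases, and 0.44 both for Gabrd, a GABA-A receptor subunit of mature granule neurons, and for Aldh1a2, a retinoic acid synthesis enzyme of meninges. Spp1 was at 588, 304 and 266 CPM in controls and at 76.8, 54.7 and 148.7 CPM in knockdowns. Aldh1a2 was at 69.4, 44.3 and 39.4 CPM in controls and at 21.1, 12.2 and 18.2 CPM in knockdowns. Spp1, Gabrd and Aldh1a2 were highest in control replicate 1, as Igfbp5 was, while Colq (11.05 CPM) and Timp1 (126 CPM) were highest in control replicate 2. The nearest other member was Igfbp4, in place 161, with a difference of 0.85, and Igfbp2 was the furthest, in place 10977.

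The other genes of the pathway were taken from a list of 48 that holds none of the 10 members, of which 47 were tested. With the block 6 fell (12.8%, where 5.4% of all genes fell), 0 rose and 41 did not pass. Their median log2 fold change was −0.12, against 0.02 over all genes. Without the block 0 of 47 passed the edgeR test (3 had an unadjusted p under 0.05) and DESeq2 called 0. Leaving out replicate 1, 2 or 3 took the count with the block to 0, 1 and 6, each time with 2 pairs left. Nothing on stability is read from these counts. Without replicate 1, where none was called, the log2 fold changes were −1.44 for Adam12, −1.30 for Htra1 and −1.09 for Wisp1. They were −1.48 for Wisp2, −0.67 for Grb10 and −0.48 for Foxo3. These genes were picked because they fell with all pairs. Each was lower in every pair, so the negative signs were fixed beforehand and are no separate support.

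Of the 6 genes that fell 2 encode proteases, 2 secreted matricellular proteins and 2 intracellular proteins. Of 6 tested IGFBP proteases, their inhibitors and carriers 2 fell. The metalloprotease Adam12, which cleaves IGFBP3 and IGFBP5, went from 252 to 89.6 CPM on average (log2 fold change −1.63, SE 0.19, edgeR adjusted p with the block 0.0282), and the serine protease Htra1 from 98.0 to 41.0 CPM (−1.26, SE 0.07, edgeR adjusted p with the block 0.0282). Pappa, the IGFBP4 protease pappalysin, did not pass (−0.78, SE 0.26). Of 8 other genes with an IGFBP domain Wisp1 (44.5 to 19.8 CPM; −1.25, SE 0.13) and Wisp2 (5.33 to 1.89 CPM; −1.44, SE 0.19) fell with the block, both members of the CCN family of matricellular proteins. Their family relatives Nov (−1.38, SE 0.32, edgeR adjusted p with the block 0.0644), Ctgf (−0.25, SE 0.10) and Cyr61 (−0.24, SE 0.07) did not pass.

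Inside the cell, 1 of 10 genes of the insulin receptor family and its substrates fell with the block, the adaptor Grb10, an imprinted inhibitor of insulin and IGF1 receptor signalling (436 to 288 CPM; −0.60, SE 0.11, edgeR adjusted p with the block 0.0484). The substrates Irs1 (−0.33, SE 0.09) and Irs2 (0.13, SE 0.10) and the insulin receptor Insr (0.09, SE 0.10) did not pass. Neither did the adaptor Shc1 (−0.69, SE 0.14, edgeR adjusted p with the block 0.0512) nor the substrate Irs4, whose mean level was 0.434 CPM in controls, against 1.45 CPM in knockdowns (1.43, SE 0.44, edgeR adjusted p with the block 0.100). None of 16 genes of PI3K, Akt and mTOR signalling passed the edgeR test with the block (2 had an unadjusted p under 0.05) or without it (0 had), and DESeq2 without the block called 0. The smallest p among them was that of Pik3r2, a regulatory subunit of PI3K (0.25, SE 0.08, edgeR adjusted p with the block 0.114). Foxo3, a transcription factor held out of the nucleus by Akt, fell with the block (117 to 85.4 CPM; −0.46, SE 0.07, edgeR adjusted p with the block 0.0336), 1 of 4 FoxO genes. None of the 3 IGF2 mRNA-binding proteins passed, the smallest p being that of Igf2bp2 (−0.28, SE 0.15).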

How the data were processed

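The authors deposited 1 table of raw read counts by gene symbol. The tools were Trimmomatic, TopHat2 and HTSeq, then edgeR and DESeq2, on build mm9, per the submitters' processing notes. Versions, annotation and the strand setting: not given in the sources used here. Columns were matched to samples by their descriptions. Tallies that name no gene were left out (reads outside genes 12.1% to 15.0% of all counts, ambiguous 0.406% to 0.509%, not uniquely aligned 16.0% to 19.3%).

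All 23366 genes entered edgeR 4.0.16 in R 4.3.3. The filter filterByExpr (minimum count 10, minimum total 15) left 15731, libraries were scaled by TMM, and the quasi-likelihood test was adjusted by Benjamini-Hochberg at 0.05. Standard errors (SE) are log2 fold changes over the root of the F statistic, without sign. Deviations from the group means correlated at 0.772, 0.709 and 0.701 between libraries of the same replicate number, so the fit with the number as a block is printed where it changes a call. This pairing comes from the data, not the labels. No library was a repeat of another in its group (chi-square of 174 to 381 per degree of freedom). The labels' design text calls them biological, without naming separate litters, so p-values cover only the spread among these libraries. With 3 against 3 libraries an exact two-sided permutation test reaches 0.1 at best.

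Exon lengths, overlaps and 3′ UTRs came from GENCODE M21 (GRCm38) and start regions from RefSeq (GRCm38.p6), matched by symbol. The fits were tested on simulated counts. The members and lists were chosen with earlier results of these data known. Named genes were the 10 members, Kdm6b and the 5 genes most like Igfbp5. Up to 3 called genes per pathway role, or else the one with the smallest p, were named too. Genes of cell types came from the first 3 of each list, and not all of these are named. Others were chosen after their values were seen: H19, Igf2as, Pappa, Nov, Ctgf, Cyr61, Irs1, Irs2, Irs4, Shc1 and Insr. Gfap and Mbp are among the first 3 genes of their lists and were picked from them in the same way. The other cell type lists gave these counts with the block: granule precursors 2 higher and 1 lower of 9, astrocytes and Bergmann glia 1 lower of 13, oligodendrocyte lineage 3 lower of 12, microglia 1 lower of 14, Purkinje cells 1 lower of 6, GABAergic interneurons 1 lower of 7, and choroid plexus and endothelial cells 0 of 10 each. Cspg4 and Pdgfra stand in both the pericyte and fibroblast and the oligodendrocyte lists.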

Additional observations from a re-analysis of the deposited data

How the results depend on the processing

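Without the replicate block edgeR called 1 gene, 0 pathway genes and 0 members. RLE or upper-quartile factors, no filter, a minimum mean of 5 CPM and limma-voom each gave 1 gene again, library totals alone gave 0 genes, and leaving out 1 library gave 0 genes each time. DESeq2 called 568 genes and 1 member. With the replicate block edgeR called 1256 genes, 6 pathway genes and 2 members. The block with RLE factors gave 1342, 7 and 3, with upper-quartile factors 1350, 7 and 3, with library totals 1276, 4 and 4, without a filter 1598, 7 and 5, with a minimum mean of 5 CPM 1440, 6 and 3, and with DESeq2 3440, 11 and 6. Leaving out a replicate number with the block gave 0 to 1272 genes, 0 to 6 pathway genes and 0 to 5 members: 53 genes, 1 pathway gene and 0 members without replicate 2, and 1272, 6 and 5 without replicate 3. The cause of these differences was not tested. The log2 fold change of Igfbp5 ran from −2.72 to −2.13 over the 24 fits, that of Igf2 from −3.67 to −0.43 and that of Igfbp6 from −3.60 to −1.43. Library totals alone shifted the median of all genes from 0.02 to 0.09. With the longest transcript as gene length, Igf1 was at 1.84 and Igf1r at 13.99 CPM per kb in controls, against 1.31 and 9.51 with all exons. Igf2 then ranked above Igfbp5, and Igfbp3 above Igfbp4. The other levels and the Igfbp5 share moved by less than 1 SD. Arms of 3 libraries limit the precision, and the part of depth in it was not tested.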
